A study of Arabidopsis thaliana with 9 samples.

Results

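Catalases remove hydrogen peroxide and superoxide dismutases (SODs) make it from superoxide. The 10 genes described here are the 3 catalases of Arabidopsis (CAT1, CAT2 and CAT3), its manganese SODs MSD1 and MSD2, its copper/zinc SODs CSD1, CSD2 and CSD3, and the iron SODs FSD1 and FSD2, out of 32830 genes in the count matrix. They were chosen by gene identifier, with the counts of these libraries already known, so their levels and fold changes are a description: no p-value is given for them, and where the threshold of the fit across all genes is named for them, it describes the fit and supports nothing. The plastid iron SOD FSD3 and the copper chaperone CCS, which are not among the 10, were tested. Their list and the other gene lists below were also chosen with earlier results of these data known, so their p-values are no independent support.

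Superoxide is formed wherever electrons leak to oxygen, in mitochondria, plastids, peroxisomes and at the cell surface, and each place has its own SOD with iron, manganese or copper and zinc in its active site. The hydrogen peroxide that follows is removed by catalase in peroxisomes and by ascorbate peroxidases, glutathione peroxidase-like enzymes and peroxiredoxins elsewhere. In germinating oilseeds the peroxisomes break down stored oil, and the acyl-CoA oxidases of that pathway release hydrogen peroxide, while reactive oxygen is also known as a signal that accompanies the end of dormancy.

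Whole seeds were sampled in 3 groups of 3 biological replicates. AtKAI2OE control and AtKAI2OE +KAR2 seeds overexpressed AtKAI2, the karrikin receptor, and received 0 or 0.5 μM of the karrikin KAR2. The sample labels place this line in Col-0, the study's default wild type, and its methods describe a 35S::AtKAI2 transgene, driven by a constitutive viral promoter, in the receptor mutant htl-3. Ara-1 control seeds were of the natural accession Ara-1, without a transgene named in the labels and without KAR2. All seeds were imbibed in the dark for 4 days at 4 °C and kept for a further 24 h in the dark. Accession, transgene and seed lot differ together between Ara-1 and AtKAI2OE and cannot be told apart. The paper reports that, in the dark, neither KAR2 nor AtKAI2 overexpression alone was enough for germination, while overexpressing seeds given KAR2 germinated. The stage reached by 24 h is given for no group, so treatment or accession and stage of germination cannot be told apart either. Both comparisons use the same 3 untreated AtKAI2OE libraries, so they are not independent. Neither labels nor methods explain the replicate numbers.

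Libraries held 17479888 to 33306518 counts assigned to genes. The 10 most abundant genes took 18.3 to 23.7% of them in untreated AtKAI2OE, 8.41 to 9.92% after KAR2 and 7.67 to 14.1% in Ara-1. In Ara-1 the 14.1% was that of replicate 1, beside 8.02% in replicate 2 and 7.67% in replicate 3. Levels are counts per 1000000 of a library's gene counts (CPM), scaled by TMM, edgeR's method that sets most genes level between libraries. Scaling by library size only moved the median log2 fold change of all genes by 0.40 in the KAR2 comparison and by 0.36 in the Ara-1 comparison, and the share of called genes that were higher went from 55.5 to 75.8% and from 54.4 to 64.2%. Of the seed storage, endosperm and seed coat marker lists, the 5 seed storage genes were the most abundant in untreated seeds and low in Ara-1. No list of a tissue outside the seed was included, so the labelled tissue was not tested.

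The genes lie on all 5 chromosomes (TAIR10.1, RefSeq annotation), and each is protein-coding. CAT3 (AT1G20620, chromosome 1, 7142972 to 7146540, plus strand) and CAT1 (AT1G20630, chromosome 1, 7146636 to 7150180, plus strand) are neighbours with 95 bases between them. CAT2 (AT4G35090) lies on chromosome 4 at 16700312 to 16703504 on the minus strand. MSD1 (AT3G10920) is at 3417940 to 3419892 on the plus strand and MSD2 (AT3G56350) at 20893946 to 20895634 on the minus strand of chromosome 3. CSD1 (AT1G08830) lies on chromosome 1 at 2827060 to 2829315, CSD2 (AT2G28190) on chromosome 2 at 12014412 to 12016569 and CSD3 (AT5G18100) on chromosome 5 at 5987187 to 5988885, all on the plus strand. FSD1 (AT4G25100) lies on chromosome 4 at 12884300 to 12887011 and FSD2 (AT5G51100) on chromosome 5 at 20773235 to 20775739, both on the minus strand. CAT2, CSD1 and CSD3 overlap genes of the opposite strand by up to 405 bases, and although the library kit keeps the strand, no source used here says whether the counting used it, so which gene the reads of these overlaps come from is uncertain. No window of 75 bases, the read length, in the longest transcript of these genes had a second copy in the genome, except 0.73% of those of FSD2.

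The 250 bases before the annotated start are shown from the TAIR10.1 genome, in the direction of the gene, for the 3 members with the largest differences after KAR2 (MSD2, CAT3 and FSD1) and for CAT2, since CAT3 and MSD2 were high where CAT2 and FSD1 were low. Capitals mark the motifs searched for on both strands: the evening element AAAATATCT of clock-regulated genes, the RY core CATGCA of seed maturation genes, the G-box CACGTG and GTAC, the core of the copper response element.
CAT3, chr1:7142722-7142971, plus strand: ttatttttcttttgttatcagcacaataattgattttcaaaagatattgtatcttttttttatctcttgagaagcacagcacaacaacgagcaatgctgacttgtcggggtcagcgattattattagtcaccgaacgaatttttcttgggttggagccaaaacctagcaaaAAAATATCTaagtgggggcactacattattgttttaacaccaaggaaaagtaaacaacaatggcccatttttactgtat
CAT2, chr4:16703505-16703754, minus strand: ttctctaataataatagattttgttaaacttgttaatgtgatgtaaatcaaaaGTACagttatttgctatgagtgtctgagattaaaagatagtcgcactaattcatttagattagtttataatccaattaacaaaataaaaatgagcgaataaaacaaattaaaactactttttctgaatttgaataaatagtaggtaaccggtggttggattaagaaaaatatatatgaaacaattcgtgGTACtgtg
MSD2, chr3:20895635-20895884, minus strand: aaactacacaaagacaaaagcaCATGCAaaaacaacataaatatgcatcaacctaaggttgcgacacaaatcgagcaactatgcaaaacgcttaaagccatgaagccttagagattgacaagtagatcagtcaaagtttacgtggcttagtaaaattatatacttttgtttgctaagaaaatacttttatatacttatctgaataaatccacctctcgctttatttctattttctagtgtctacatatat
FSD1, chr4:12887012-12887261, minus strand: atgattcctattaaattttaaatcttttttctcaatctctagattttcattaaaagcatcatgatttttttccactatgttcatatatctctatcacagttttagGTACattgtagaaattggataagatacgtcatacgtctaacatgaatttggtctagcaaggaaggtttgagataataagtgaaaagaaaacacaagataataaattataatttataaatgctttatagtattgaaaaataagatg
The evening element was in 1 of the 10 windows, that of CAT3, at 79 bases before the start, and in 2.36% of 27443 such windows in the genome. The RY core was in 2 members, MSD2 and MSD1, and in 8.43% of all windows. GTAC was in 4 members, CAT2, CSD1, CSD3 and FSD1, and in 34.3% of all windows, whereas the G-box was in 0 of 10 and in 6.49% of all. A match is a description of these letters and not of a bound site.

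Of the 10 genes, 4 were higher and 5 lower in AtKAI2OE +KAR2 than in untreated seeds past an adjusted p of 0.05 (quasi-likelihood test of edgeR, Benjamini-Hochberg adjustment over 17226 genes), where 29.8% of all genes tested were higher and 24% lower. The replicates did not overlap for 9 of the 10, and for 65.2% of all genes tested. In Ara-1 seeds relative to untreated AtKAI2OE seeds, again 4 were higher, 5 lower and 9 without overlap, where 37.9% of 17905 genes were higher, 31.8% lower and 75.2% without overlap. Since the choice of genes used these values, the counts are not read further. With scaling by library size only, the KAR2 comparison had 4 members higher and 3 lower. The members' median log2 fold change was -0.48 after KAR2 and -0.62 in Ara-1, beside 0.06 and 0.16 for all genes tested.

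**Figure D1:**
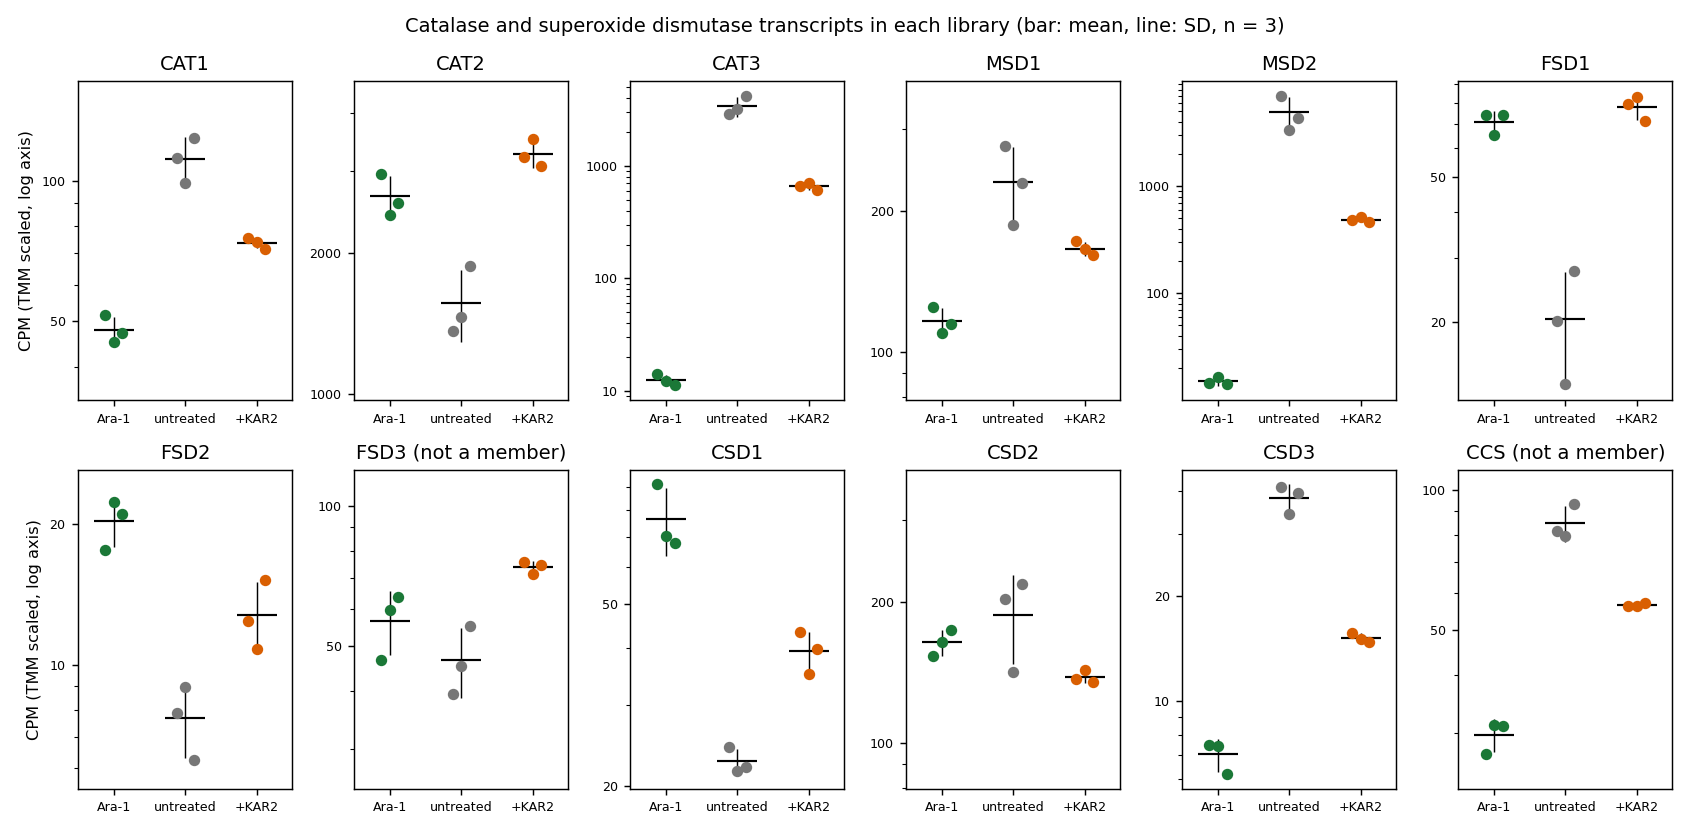
CPM of each gene in each of the 9 libraries on a log axis, with points for replicates, bars for group means and lines for SD (n = 3). CAT3 and MSD2 were at 2868 CPM or more in every untreated AtKAI2OE library, between 465 and 709 CPM after KAR2 and at 16.5 CPM or less in Ara-1, and CAT2, FSD1, FSD2 and CSD1 were lowest in the untreated libraries.

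CAT3 encodes the catalase known from vascular tissue and old leaves, whose transcript peaks in the evening in seedlings. Its level was 2868, 3182 and 4227 CPM in the 3 untreated AtKAI2OE libraries, 658, 709 and 617 CPM after KAR2, and 14.1, 12.2 and 11.3 CPM in Ara-1. The 3 groups did not overlap, with untreated AtKAI2OE highest and Ara-1 lowest. The log2 fold change was -2.39 (SE 0.19), 5.24-fold lower, after KAR2 and -8.12 (SE 0.29), 278-fold lower, in Ara-1. In Ara-1 the gene still had 249 to 450 counts a library, against 43367 to 90226 in untreated AtKAI2OE. Ara-1 reads were mapped to the Col-0 genome, and the part of this in the Ara-1 levels of CAT3 and the genes below was not tested.

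CAT2, the main leaf catalase that clears the hydrogen peroxide of photorespiration, moved the opposite way. It was at 1362, 1462 and 1880 CPM in untreated seeds, 3218, 3514 and 3083 CPM after KAR2, and 2969, 2417 and 2569 CPM in Ara-1. All untreated libraries were below all libraries of the other groups, and the KAR2 libraries were above those of Ara-1. On the log2 scale the difference was 1.04 (SE 0.18) after KAR2 and 0.73 (SE 0.21) in Ara-1. Its counts were 83422 to 99707 a library after KAR2, so counting error is small beside the spread of replicates.

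CAT1, the catalase known from pollen and seeds and from responses to abscisic acid, was the scarcest of the 3 per kilobase in both AtKAI2OE groups. Its level was 112, 99.2 and 124 CPM in untreated seeds, 75.4, 74.1 and 71.6 CPM after KAR2, and 51.5, 45.2 and 47.2 CPM in Ara-1. The groups did not overlap and stood in the same order as for its neighbour CAT3, over a much smaller range. Its log2 fold change was -0.62 (SE 0.12) after KAR2 and -1.25 (SE 0.14) in Ara-1. With scaling by library size only, the first was -0.22 and no longer past the threshold.

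The make-up of the catalase transcripts differed more than their sum. Per kilobase of the longest annotated transcript, CAT3 was 64.4% ± 0.961 (SD, n = 3) of the catalase sum in untreated seeds, 15.1% ± 0.131 after KAR2 and 0.415% ± 0.0283 in Ara-1. CAT2 made up 32.9% ± 0.594, 82.8% ± 0.184 and 97.5% ± 0.0890. CAT1 stayed between 1.98 and 3.21% in every library. These shares and the ratios of counts within a library do not depend on the scaling between libraries. There were 0.445 to 0.475 CAT2 counts for each CAT3 count in untreated seeds, 4.89 to 4.99 after KAR2 and 198 to 227 in Ara-1. The sum of the 3 catalases was 1569 to 2245 CPM per kilobase in untreated seeds and 1433 to 1632 after KAR2, which overlapped, and 955 to 1171 in Ara-1, which lay below both.

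**Figure D2:**
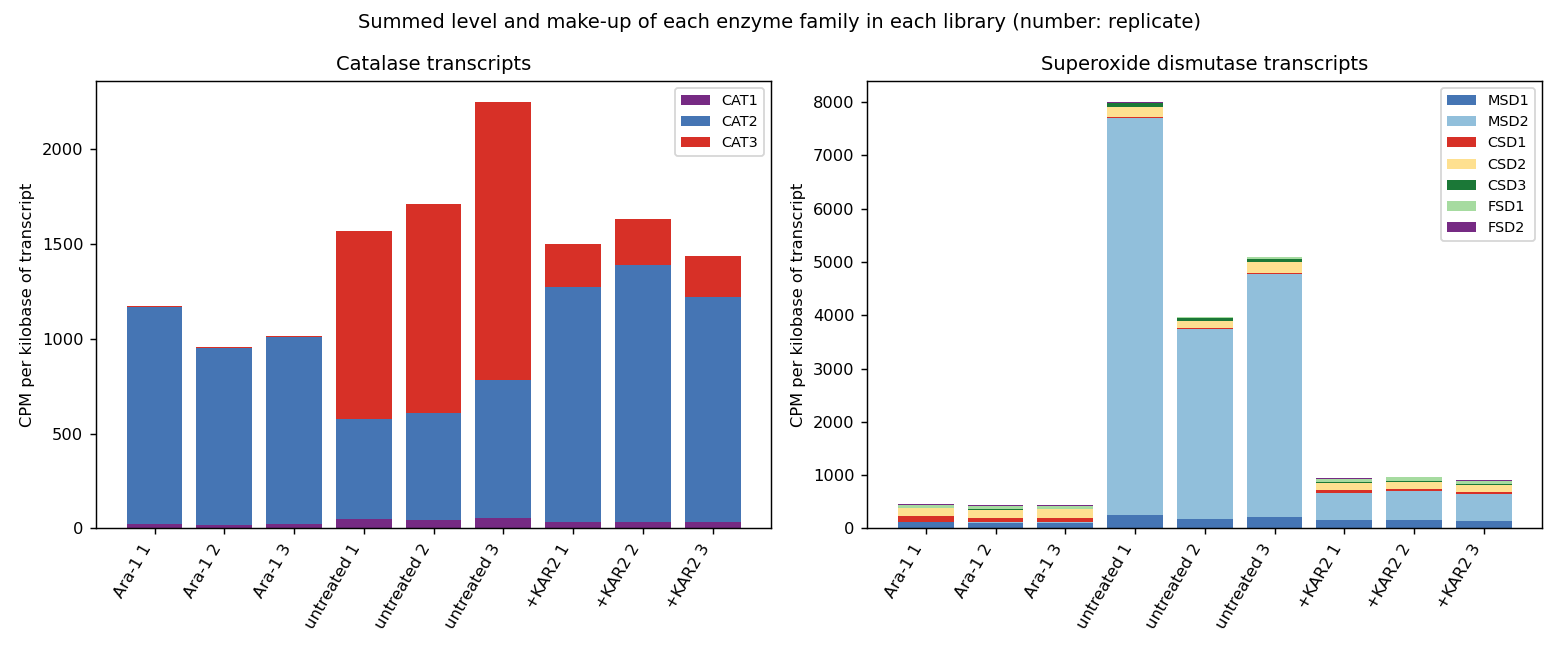
Stacked CPM per kilobase of transcript for the 3 catalases (left) and the 7 SODs (right), one bar for each of the 9 libraries, with both axes starting at 0. CAT3 and MSD2 make up most of the bars of untreated seeds (63.4 to 65.3% and 89.6 to 93.1%), and CAT2 most of the catalase bars of the other groups.

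MSD2, a manganese SOD secreted to the apoplast and known for a role in root growth in the dark, had the largest difference of the 10 genes after KAR2. In Ara-1 it lay within its error of CAT3, and without untreated replicate 1 CAT3 was the lower (-8.28, against -8.06 for MSD2). Its level was 7026, 3370 and 4308 CPM in untreated seeds, 478, 516 and 465 CPM after KAR2, and 14.5, 16.5 and 14.0 CPM in Ara-1. No overlap between groups was seen, and replicate 1 of the untreated seeds stood above the other two. Relative to untreated seeds, the log2 fold change was -3.37 (SE 0.33), 10.3-fold lower, after KAR2 and -8.39 (SE 0.45), 336-fold lower, in Ara-1. Its counts ran from 83952 to 106224 in untreated seeds and from 257 to 609 in Ara-1.

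MSD1, the manganese SOD of mitochondria, differed by far less. It was at 275, 187 and 230 CPM in untreated seeds, 172, 166 and 161 CPM after KAR2, and 125, 110 and 115 CPM in Ara-1. The groups did not overlap, but untreated replicate 2 was close to the KAR2 libraries. The log2 fold change was -0.50 (SE 0.17) after KAR2 and -1.02 (SE 0.19) in Ara-1. After KAR2 it was past the threshold under 6 of 15 alternatives and was -0.08 with scaling by library size only. In Ara-1 it was past it under all 15.

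There were 18.0 to 25.5 MSD2 counts for each MSD1 count in untreated seeds and 2.77 to 3.11 after KAR2. In Ara-1 the order of the pair was turned, also per kilobase, with 6.64 to 8.61 MSD1 counts for each MSD2 count. Of the CPM per kilobase of the 7 SODs, MSD2 took 90.9% ± 1.89 (SD, n = 3) in untreated seeds, 54.9% ± 1.23 after KAR2 and 3.56% ± 0.412 in Ara-1. The SOD sum was 3967 to 7998 CPM per kilobase, 903 to 970 and 434 to 463 in these groups, with no overlap.

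FSD1, an iron SOD of the cytosol and plastids whose transcript is known to be high when copper is scarce, was low in untreated seeds. Its level was 20.1, 13.5 and 27.6 CPM in untreated seeds, 79.3, 82.9 and 71.2 CPM after KAR2, and 74.2, 65.3 and 74.0 CPM in Ara-1. The untreated libraries were below all others, and the KAR2 and Ara-1 libraries overlapped. On the log2 scale the difference was 1.91 (SE 0.24) after KAR2 and 1.78 (SE 0.25) in Ara-1. Counts of FSD1 came from 2 entries of the matrix, of which the second held up to 18.0% in Ara-1 replicate 3.

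FSD2, which works with FSD3 in the plastid nucleoids of developing chloroplasts, was the scarcest of the 7 SODs per kilobase in untreated seeds. It was at 7.87, 8.95 and 6.23 CPM in untreated seeds, 12.4, 10.8 and 15.2 CPM after KAR2, and 17.6, 22.3 and 21.0 CPM in Ara-1. No overlap between groups was seen. Relative to untreated seeds, the log2 fold change was 0.71 (SE 0.21) after KAR2 and 1.37 (SE 0.21) in Ara-1. The first was no longer past the threshold without untreated replicate 3 (0.54), without KAR2 replicate 1 (0.74) or without KAR2 replicate 3 (0.56).

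FSD3 (AT5G23310) was tested as a gene outside the 10. It was at 39.5, 45.3 and 55.3 CPM in untreated seeds, 75.8, 71.4 and 74.8 CPM after KAR2, and 46.6, 59.6 and 63.8 CPM in Ara-1. The KAR2 libraries were above all others, and the untreated and Ara-1 libraries overlapped. It rose after KAR2 with a log2 fold change of 0.64 (SE 0.13, edgeR adjusted p = 0.00447), and the difference of 0.26 in Ara-1 (SE 0.18, edgeR adjusted p = 0.23) did not pass. With scaling by library size only the latter was 0.62 (edgeR adjusted p = 0.0298). Whether the 2 differences themselves differ was not tested. Together FSD1 and FSD2 summed to 17.4 to 26.3 CPM per kilobase in untreated seeds, 67.1 to 72.9 after KAR2 and 68.0 to 73.8 in Ara-1.

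The copper/zinc SODs differed in direction. CSD1, the cytosolic enzyme and a known target of the microRNA miR398, was at 24.3, 21.6 and 22.0 CPM in untreated seeds, 43.2, 35.2 and 39.7 CPM after KAR2, and 91.2, 70.3 and 67.8 CPM in Ara-1. The groups did not overlap, and Ara-1 was highest. The log2 fold change was 0.77 (SE 0.14) after KAR2 and 1.72 (SE 0.17) in Ara-1. Small RNAs are not covered by these counts.

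CSD3, the copper/zinc SOD of peroxisomes, had the opposite order. It was at 41.1, 34.3 and 39.3 CPM in untreated seeds, 15.7, 15.1 and 14.7 CPM after KAR2, and 7.51, 7.41 and 6.17 CPM in Ara-1, with no overlap between groups. On the log2 scale the difference was -1.36 (SE 0.12) after KAR2 and -2.48 (SE 0.16) in Ara-1. CSD3 also had a second entry in the matrix, with up to 33.5% of its counts in Ara-1 replicate 3, and overlaps genes on the opposite strand.

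CSD2, the plastid enzyme and the most abundant copper/zinc SOD per kilobase in each group, was the member without a call. Its level was 203, 142 and 219 CPM in untreated seeds, 137, 143 and 135 CPM after KAR2, and 153, 164 and 174 CPM in Ara-1. The untreated libraries overlapped both other groups, with replicate 2 the lowest of its group. Relative to untreated seeds, the log2 fold change was -0.47 (SE 0.17) after KAR2 and -0.22 (SE 0.19) in Ara-1, and the latter turned to 0.15 with scaling by library size only. Without untreated replicate 2 they were -0.67 and -0.42 and past the threshold. The sum of the 3 copper/zinc SODs was 208 to 289 CPM per kilobase in untreated seeds, 195 to 202 after KAR2 and 247 to 261 in Ara-1.

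CCS (AT1G12520), the chaperone that loads copper into these enzymes, was at 81.6, 79.6 and 93.2 CPM in untreated seeds, 56.3, 56.4 and 57.3 CPM after KAR2, and 27.0, 31.2 and 31.1 CPM in Ara-1. No overlap between groups was seen. CCS fell after KAR2 with a log2 fold change of -0.60 (SE 0.10, edgeR adjusted p = 0.00251) and was lower in Ara-1 with -1.53 (SE 0.14, edgeR adjusted p = 5.79e-05). With scaling by library size only, the KAR2 value was -0.20 (edgeR adjusted p = 0.175). SPL7, the factor that raises FSD1 and lowers CSD transcripts under copper shortage, fell from 24.7 ± 2.40 CPM (SD, n = 3) to 18.3 ± 0.860 after KAR2 (log2 fold change -0.46, SE 0.13, edgeR adjusted p = 0.0186) and was at 14.5 ± 1.78 in Ara-1 (-0.81, SE 0.16, edgeR adjusted p = 0.00252). SPL7 did not pass with scaling by library size only (-0.06 and -0.44) or, after KAR2, when any 1 of the KAR2 replicates was left out.

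**Figure D3:**
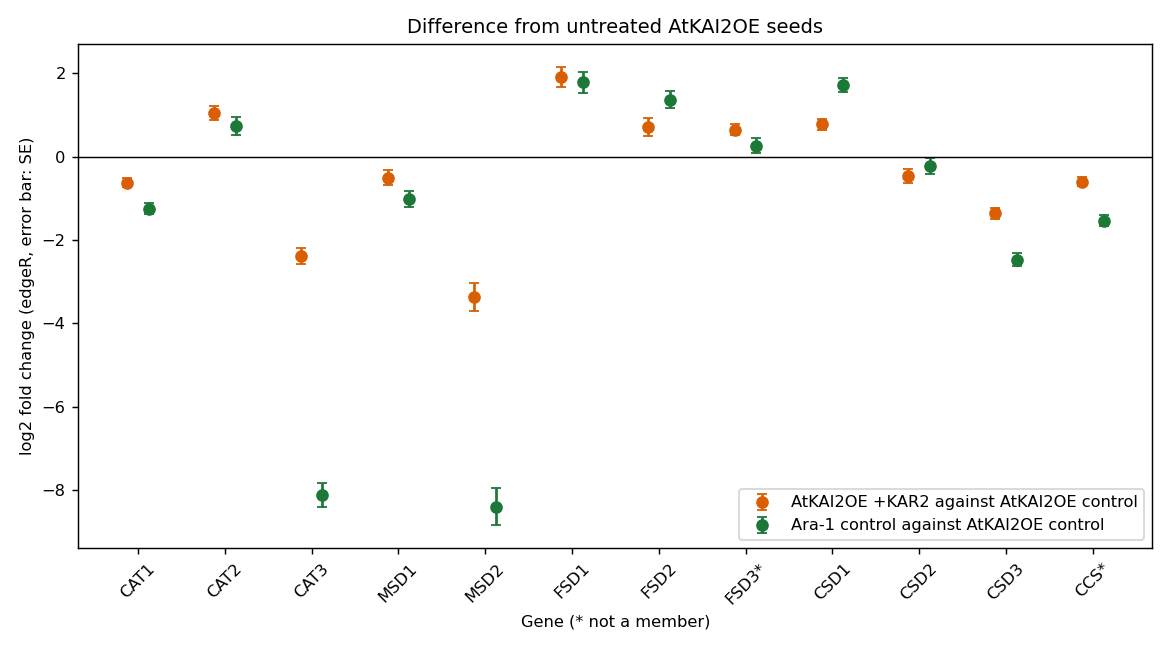
Log2 fold change against untreated AtKAI2OE seeds from edgeR for each gene, with KAR2 in orange and Ara-1 in green, and error bars of 1 SE from 3 against 3 libraries. MSD2 (-3.37 and -8.39) and CAT3 (-2.39 and -8.12) lie lowest in both comparisons. FSD1 lies highest after KAR2 (1.91), and FSD1 (1.78) and CSD1 (1.72) lie level in Ara-1.

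Across the 3 groups, 5 members (CAT1, CAT3, MSD1, MSD2 and CSD3) were lowest in Ara-1, intermediate after KAR2 and highest in untreated AtKAI2OE, without overlap between neighbouring groups, an order that 18.6% of 18291 genes had. The reverse order without overlap was that of 2 members, CSD1 and FSD2, and of 22.3% of all genes. CAT2 alone of the 10 had the order untreated, Ara-1 and KAR2 without overlap, as did 2.08% of all genes. Placed beside the KAR2 libraries, the Ara-1 libraries were lower for 6 members, higher for 3 (CSD1, CSD2 and FSD2) and overlapping for 1, FSD1, where 34.2% of all genes were lower and 34.8% higher without overlap. These groups differ in accession, transgene and treatment at once, so no fold change was fitted between them.

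The seeds were whole, and fewer cells of a type and less RNA per cell cannot be told apart in such libraries. The 5 seed storage genes summed to 110660 to 154190 CPM in untreated AtKAI2OE, 13155 to 14358 after KAR2 and 302 to 501 in Ara-1, and 5 of 5 were lower in both comparisons (for the cruciferin CRA1, log2 fold changes of -3.10 and -8.49). The order of their sums is that of CAT1, CAT3, MSD1, MSD2 and CSD3, and 18.6% of 18291 genes had it without overlap. Of the 3 endosperm genes, ZOU was at 0 in every library and EPR1 fell after KAR2 (log2 fold change -1.44, SE 0.34, edgeR adjusted p = 0.0104). The third, MAN7, passed in neither comparison, with values of 0.46 after KAR2 and 0.87 in Ara-1 at mean levels of 3.45 to 6.42 CPM, so EPR1 carries the list's sum. The list summed to 1319 to 3497, 761 to 935 and 138 to 217 CPM in untreated, KAR2 and Ara-1 seeds. Of the 4 seed coat genes, PER36, TT10 and BAN were at 0 in every library, and the list summed to at most 5.54 CPM. MUM2, the one with counts, was higher in Ara-1 (log2 fold change 2.53, SE 0.83, edgeR adjusted p = 0.0272) and did not pass after KAR2 (2.17, edgeR adjusted p = 0.057), where its replicates did not overlap either. Genes at 0 in every library do not tell how much endosperm or seed coat was present. The part of storage, endosperm and seed coat RNA in the values above was not tested.

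For the 3 members with the largest difference after KAR2, the genes with the most similar profile were sought among 18291 genes by Pearson's r of log2(CPM + 1) over the 9 libraries. Since these are 3 groups of 3, r mainly describes the 3 group levels, and it has no test. The closest to MSD2 were AT1G02700 (r = 0.9996), HSD1 (0.9994), which encodes an oil body steroleosin and has a near-identical copy that makes its counts uncertain, and AT4G18920 (0.9992). Mean HSD1 levels were 2569 CPM in untreated seeds, 174 after KAR2 and 2.0 in Ara-1. The closest to CAT3 were AT5G59170, KAPP, a kinase-associated phosphatase, and ERF12, an ethylene response factor (each 0.999). KAPP had the same order over a narrow range, with means of 35.3, 27.1 and 14.8 CPM, since r does not weigh the size of a difference. The closest to FSD1 were AT3G08030 (0.997), AT4G28060 (0.997) and AT4G26710 (0.996).

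The enzymes around catalase and SOD were followed in 8 lists of 56 genes, all outside the 10 and chosen with earlier results of these data known. After KAR2, 24 of 45 tested genes rose, 11 fell and 10 did not pass, with a median log2 fold change of 0.53. In Ara-1, 21 of 44 were higher, 12 lower and 11 did not pass, with a median of 0.43. The genes that rose include the NADPH oxidases RBOHB and RBOHF, and those higher in Ara-1 include RBOHF. Both were at 0 in untreated seeds and passed the filter only through the other group. The shares of all genes called are those given above (29.8% and 24% after KAR2, 37.9% and 31.8% in Ara-1). With scaling by library size only, 27 rose and 4 fell after KAR2, and 22 were higher and 10 lower in Ara-1. The count of genes that fell after KAR2 was 7 without KAR2 replicate 1 and 6 without KAR2 replicate 3.

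Of the catalase helpers, NCA1, a chaperone needed for catalase activity, fell after KAR2 from 89.9 ± 8.83 CPM (SD, n = 3) to 64.4 ± 2.92 (log2 fold change -0.51, SE 0.13, edgeR adjusted p = 0.0128) and was at 38.3 ± 3.76 in Ara-1 (-1.26, SE 0.15, edgeR adjusted p = 0.000258). PEX5, the receptor that imports catalase and other proteins into peroxisomes, rose from 105 ± 12 to 138 ± 5.12 CPM (0.36, SE 0.12, edgeR adjusted p = 0.038). In Ara-1 it was at 102 ± 10.6 CPM and did not pass. After KAR2, NCA1 did not pass with scaling by library size only (-0.10), without KAR2 replicate 1 or without KAR2 replicate 3, and PEX5 no longer passed when any 1 of these 6 libraries other than untreated replicate 2 was left out.

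Ascorbate peroxidases reduce hydrogen peroxide with ascorbate. Of 5 tested, 3 rose and 2 fell after KAR2, and 3 were higher and 2 did not pass in Ara-1. APX1, the main cytosolic enzyme, was at 9.33, 7.18 and 33.8 CPM in untreated seeds, 215, 193 and 214 after KAR2, and 851, 618 and 677 in Ara-1. The groups did not overlap, and untreated replicate 3 stood above the other two. APX1 rose 12.4-fold after KAR2 (log2 fold change 3.63, SE 0.56, edgeR adjusted p = 0.00156) and was 42.6-fold higher in Ara-1 (5.41, SE 0.63, edgeR adjusted p = 0.000208). Without untreated replicate 3 these were 24.1-fold and 83.8-fold. APX3, at the peroxisome membrane, rose from 78.0 ± 17.6 to 344 ± 14.1 CPM (2.12, SE 0.19, edgeR adjusted p = 0.000141) and was at 491 ± 52.9 in Ara-1 (2.63, SE 0.22, edgeR adjusted p = 4.41e-05). SAPX, of plastid stroma and mitochondria, also rose (1.26 and 2.02), whereas the cytosolic APX6 (-0.82) and the thylakoid TAPX (-0.64) fell after KAR2. Neither APX6 nor TAPX passed with scaling by library size only (-0.41 and -0.24) or without KAR2 replicate 1 or 3, nor did APX6 with entries named by the identifier alone, or TAPX without KAR2 replicate 2 or untreated replicate 3, with no filter, with the replicate block or with all 9 libraries in one fit. The transcript of APX2 was at 0 in every library.

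Monodehydroascorbate, dehydroascorbate and glutathione reductases return ascorbate and glutathione to their reduced forms. Of 9 tested, 4 rose and 1 fell after KAR2, and 5 were higher and 1 lower in Ara-1. MDAR4, bound to the peroxisome membrane and known for its need in seed oil use, rose from 37.4 ± 3.18 to 169 ± 5.07 CPM (log2 fold change 2.16, SE 0.11, edgeR adjusted p = 2.66e-05). MDAR2, with 8.03 ± 2.87 CPM in untreated seeds and 54.2 ± 12.3 in Ara-1 (2.73, SE 0.27, edgeR adjusted p = 8.65e-05), and MDAR6, with 43.0 ± 4.53 and 290 ± 23.2 (2.72, SE 0.15, edgeR adjusted p = 7.4e-06), were higher in Ara-1, with log2 fold changes that differed by less than their errors. DHAR2 was called higher there (0.89, edgeR adjusted p = 0.0327), but no longer passed when any 1 of the Ara-1 replicates or untreated replicate 3 was left out. DHAR1 fell, from 277, 206 and 228 CPM in untreated seeds to 67.2, 62.6 and 62.6 after KAR2 (-1.92, SE 0.16, edgeR adjusted p = 0.000116), and was at 0.226, 0.217 and 0.340 CPM in Ara-1. That is 894-fold lower (-9.80, SE 0.30, edgeR adjusted p = 2.49e-06). Few counts in Ara-1 stand behind this ratio, so its size is uncertain. As for the other genes, Ara-1 reads were mapped to the Col-0 genome, and the part of this in the low DHAR1 level was not tested. The glutathione reductases GR1 and GR2 passed in neither comparison.

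Of the glutathione peroxidase-like genes, 3 of 6 tested rose and 1 fell after KAR2, and 2 were higher and 2 lower in Ara-1. GPX2 rose from 1.64 ± 1.03 to 7.41 ± 0.452 CPM (log2 fold change 2.12, SE 0.46, edgeR adjusted p = 0.00661) and was at 35.7 ± 3.81 in Ara-1 (4.37, SE 0.44, edgeR adjusted p = 9.84e-05). GPX8 rose after KAR2 by 0.99 on the log2 scale (edgeR adjusted p = 0.0167). GPX6 fell from 504 ± 121 to 284 ± 7.15 CPM (-0.85, edgeR adjusted p = 0.00926) and was at 97.6 ± 3.48 in Ara-1 (-2.40, edgeR adjusted p = 6.58e-05). After KAR2, GPX8 did not pass when any 1 of the KAR2 replicates was left out, nor GPX6 with scaling by library size only (-0.44).

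The 8 tested peroxiredoxins, thiol peroxidases, all passed, with 4 higher and 4 lower in both comparisons. The 4 that rose are plastid proteins: PRXQ, 2CPA, 2CPB and PRXIIE. PRXQ rose from 4.02 ± 1.48 to 38.6 ± 1.22 CPM after KAR2 (log2 fold change 3.25, SE 0.23, edgeR adjusted p = 6.38e-05) and was at 71.0 ± 8.41 in Ara-1 (4.12). The 4 that fell are PER1, the 1-Cys peroxiredoxin of seeds, the cytosolic PRXIIB and PRXIIC and the mitochondrial PRXIIF. PER1 was at 5013 ± 909 CPM in untreated seeds, 1015 ± 37.1 after KAR2 (-2.34, SE 0.22, edgeR adjusted p = 0.000161) and 37.5 ± 7.29 in Ara-1 (-7.10, SE 0.34, edgeR adjusted p = 5.03e-06). PRXIIC fell by 3.05 on the log2 scale after KAR2 (edgeR adjusted p = 0.00013) and was lower by 5.75 in Ara-1. PRXIIF fell by 0.78 on the log2 scale after KAR2 (edgeR adjusted p = 0.025), but did not pass with scaling by library size only (-0.37) or without untreated replicate 1, untreated replicate 3, KAR2 replicate 2 or KAR2 replicate 3. PRXIIB, PRXIIC and PRXIID are close copies, so their counts are uncertain where reads could be shared.

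NADPH oxidases make superoxide at the plasma membrane. RBOHB, known from germinating seeds, had 0 counts in the untreated libraries and 1.48, 1.095 and 1.56 CPM after KAR2, at least 28.6-fold higher when 3 counts over the untreated group are taken as the floor (edgeR adjusted p = 0.001). In Ara-1, RBOHB was at 0.564, 0.380 and 0 CPM and was too low to be tested. RBOHF was also at 0 in untreated seeds, and was at least 18.2-fold higher after KAR2 (edgeR adjusted p = 0.00172) and at least 35.3-fold higher in Ara-1 (edgeR adjusted p = 0.000447), at levels of at most 2.09 CPM. These bounds only put the floor in place of the untreated count. They leave out the counting error of the other group and the spread of replicates. RBOHB and RBOHF passed the count filter only through the group where they were high, so their p-values are no support. RBOHD rose from 18.7 ± 6.66 to 32.1 ± 1.80 CPM (log2 fold change 0.75, edgeR adjusted p = 0.0327), which no longer passed when any 1 of the 6 libraries other than untreated replicate 2 was left out, and RBOHE was lower in Ara-1 (-2.67, edgeR adjusted p = 0.00113).

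Of the 7 peroxisomal oxidases that release hydrogen peroxide, 5 rose and 2 did not pass after KAR2, and 6 were higher and 1 lower in Ara-1. GOX2, a glycolate oxidase of photorespiration, rose from 40.7 ± 6.34 to 406 ± 26 CPM (log2 fold change 3.29, SE 0.15, edgeR adjusted p = 2.47e-05) and was at 475 ± 62.8 in Ara-1 (3.52, SE 0.19, edgeR adjusted p = 7.07e-06). Its neighbour GOX1 is a close copy, so the split of counts between them is uncertain. ACX3, an acyl-CoA oxidase of oil breakdown, rose from 110 ± 31.8 to 561 ± 16.6 CPM (2.33, SE 0.20, edgeR adjusted p = 0.000125) and was at 561 ± 57.6 in Ara-1 (2.33, SE 0.22, edgeR adjusted p = 8.25e-05). ACX2 (1.82 and 1.73) and ACX4 (1.49 and 1.29) were also higher in both, and ACX1 only passed in Ara-1 (0.08 after KAR2 and 1.01 in Ara-1), a difference between comparisons that was not tested.

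**Figure D4:**
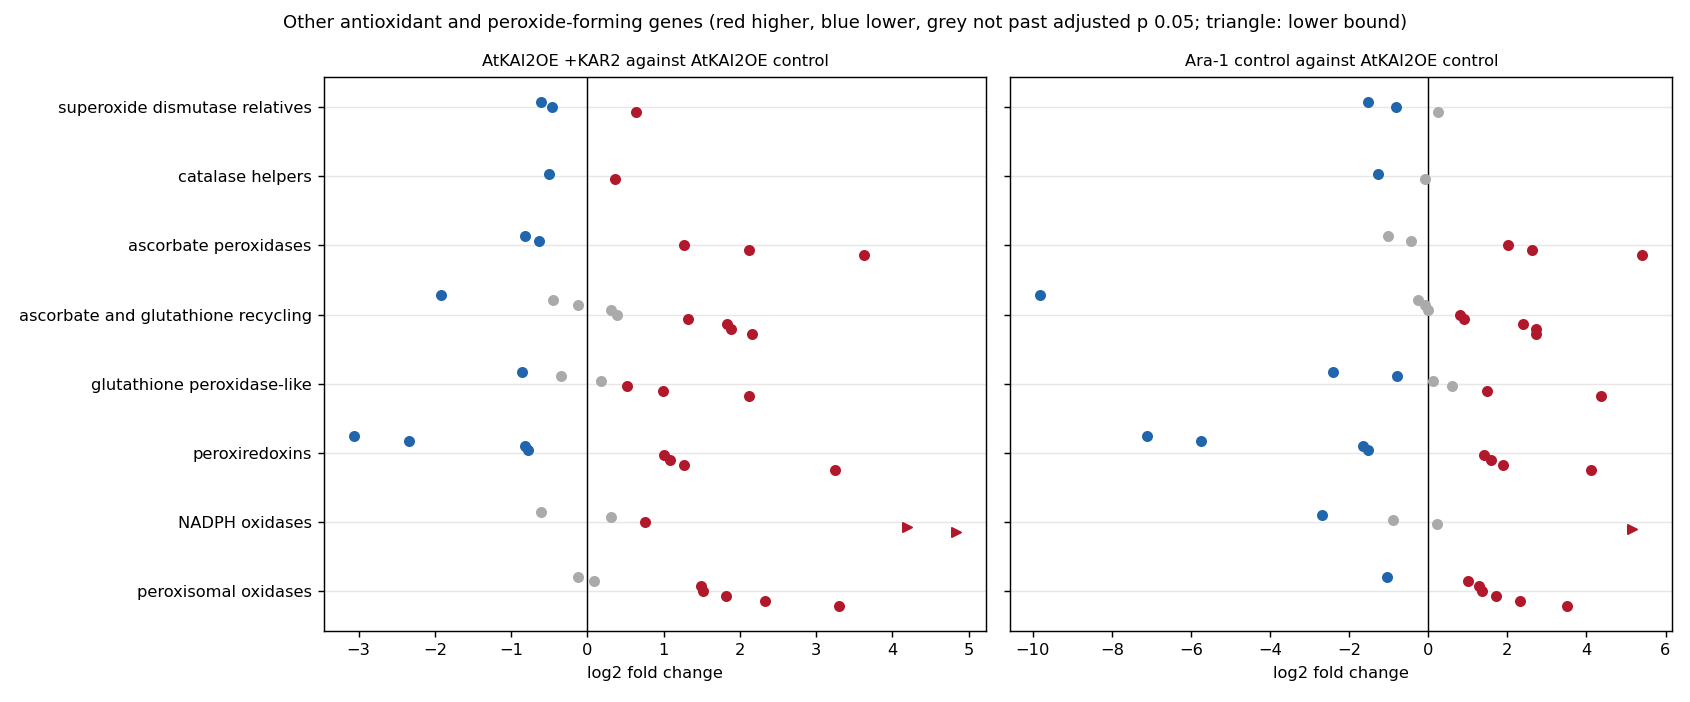
Log2 fold change against untreated AtKAI2OE seeds for the tested genes of the 8 lists, with KAR2 on the left and Ara-1 on the right on different scales, in red where higher, in blue where lower and in grey where an adjusted p of 0.05 was not reached. Triangles are lower bounds for genes at 0 in untreated seeds, with 3 counts over that group as the floor. The peroxiredoxins split into 4 higher and 4 lower on both sides, and 5 and 6 of the 7 peroxisomal oxidases were higher.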

How the data were processed

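Whole dark-imbibed seeds were profiled by RNA-seq. The authors used htStream for cleaning of single-end reads from a directional kit, HISAT2 2.1.0 for mapping to TAIR10, SAMtools 1.10 to keep unique reads and StringTie 2.1.3 with Araport11 for the deposited whole-number counts. Ara-1 reads were thus mapped to the Col-0 genome. The authors' DESeq2 1.18.1 normalized tables were not used here. Of 37054 entries, those of one gene were summed, and 1105 entries naming no gene (13.4 to 35.1% of counts) were left out. The 35.1% was that of Ara-1 replicate 1, beside 13.4% in Ara-1 replicate 2 and 13.6% in Ara-1 replicate 3.

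Each comparison took 6 libraries in edgeR 4.0.16 (filterByExpr, minimum count 10, minimum total 15, TMM, quasi-likelihood test, Benjamini-Hochberg at 0.05). The SE is the absolute log2 fold change divided by the square root of the F statistic. The tests were tried on simulated data. Alternatives were RLE scaling, library size only, DESeq2 1.42.0, no filter, 10 counts in every library, all 9 libraries in one fit, the replicate block, each replicate left out and, added after the data were seen, entries named by the identifier alone and unnamed entries kept. Replicates of a group differed beyond sampling noise (11.6 to 128 as the chi-square per degree of freedom). Ara-1 replicate 1 was at 103 and 128 against replicates 2 and 3, which were at 26.7 against each other. The untreated pairs were at 54.9 to 127.

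The members and gene lists were chosen with earlier results of these data known. Named are all 10 members, FSD3 and CCS, genes past the threshold, with the 2 largest log2 fold changes of each list always, and 3 similar genes for each of 3 members.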

Additional observations from a re-analysis of the deposited data

How the results depend on the processing

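With scaling by library size only, 3 members were lower after KAR2 in place of 5, 4 of the other antioxidant genes fell in place of 11, and CSD2 turned from -0.22 to 0.15 in Ara-1. Leaving out 1 replicate gave 6 to 12 other antioxidant genes that fell and 20 to 25 that rose after KAR2, 12 to 13 lower and 20 to 22 higher in Ara-1, 4 to 6 members lower and 3 to 4 higher after KAR2, and 5 to 6 lower and 3 to 4 higher in Ara-1. CAT2 in Ara-1 ranged from 0.60 to 1.09 and missed the threshold without untreated replicate 1, Ara-1 replicate 1 or Ara-1 replicate 3. Over the 15 alternatives, and as a description of the same libraries, the log2 fold change after KAR2 and in Ara-1 ranged from -2.52 to -2.00 and from -8.28 to -7.76 for CAT3, from -3.61 to -2.94 and from -8.61 to -8.00 for MSD2, and from 1.65 to 2.32 and from 1.52 to 2.15 for FSD1. CSD2 after KAR2 passed with DESeq2, with all 9 libraries in one fit and with entries named by the identifier alone. The cause of these shifts was not tested.

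The deviations of same-numbered libraries had r of 0.05, -0.11 and -0.08 after KAR2 and of 0.04, 0.37 and 0.07 in Ara-1. Libraries with unlike numbers had r of -0.13 to 0.20 after KAR2 and of -0.22 to 0.16 in Ara-1. In Ara-1 all 3 same-numbered values were positive, and replicate 2 had the highest r. These values cannot settle whether the numbers are pairs, so the main fits did not use the numbers. With the replicate block, 3 members were higher and 4 lower after KAR2 (MSD1 and FSD2 no longer passed), 4 higher and 5 lower in Ara-1, and the other antioxidant genes numbered 22 and 10, and 21 and 12. With 3 libraries a group, the lowest counts of a member were those of FSD2 (119) and CSD3 (133).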
